A study of Mus musculus with 20 samples.

Results

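The enzymes that break down the aromatic amino acids tryptophan, phenylalanine and tyrosine were followed in the mouse kidney after ischemia and reperfusion. They were chosen by gene name, as the 9 genes Kmo, Kynu, Haao, Afmid, Acmsd, Ddc, Maob, Hpd and Fah of the 27827 gene names on the array, and not by a threshold on measured values. Total kidney RNA of male C57BL/6 mice aged 8 to 12 weeks was labelled with the dye Cy3 and hybridised to 20 Agilent whole-genome arrays, 4 in each of 5 groups. By the labels, Control mice had neither surgery nor a protective treatment, and sham surgery is mentioned for no group. In the IRI group (ischemia/reperfusion injury), both renal pedicles were clamped for 45 min and the kidney was taken after 6 h of reperfusion. IRI+Hemin mice received the same injury and, 24 h before it, 25 mg/kg of Hemin by intraperitoneal injection. Hemin mice received Hemin without surgery, with the same 25 mg/kg and 24 h recorded for them. That interval is counted to surgery, which they did not have. The sources used here do not say whether any group was given vehicle by injection. IPC+IRI mice had ischemic pre-conditioning, a clamp of 15 min given 7 days before the injury. Labels do not say that each array is a separate animal, so the p-values describe the spread between these samples. The samples were whole kidney, in which fewer cells of a type and less RNA per cell cannot be told apart.

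Tryptophan is opened by dioxygenases to N-formylkynurenine, and the kynurenine formamidase Afmid turns that product into kynurenine. Kmo hydroxylates kynurenine, Kynu cleaves it and its hydroxylated form, and Haao opens the ring of 3-hydroxyanthranilate, which leads towards quinolinate and NAD. Acmsd diverts the product of Haao away from quinolinate. Ddc (aromatic L-amino acid decarboxylase) forms dopamine and serotonin from their precursors, and the proximal tubule is known to make dopamine from circulating L-DOPA with this enzyme. Maob oxidises amines. Tyrosine, which is also formed from phenylalanine, is degraded through 4-hydroxyphenylpyruvate by Hpd, and Fah carries out the last step, to fumarate and acetoacetate. These pathways are best known from the liver, and several of their enzymes are also abundant in the proximal tubule.

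The 9 genes were read by 12 probes of 60 bases, a single probe for 6 genes and a pair for Kynu, Afmid and Ddc. The probes of the genes whose values moved most, and both probes of each pair, are given as the array annotation lists them, with positions on mm9 and all letters in lower case because no part of a probe is singled out.
Kynu, A_52_P118560, chr2:43537195-43537254, plus strand: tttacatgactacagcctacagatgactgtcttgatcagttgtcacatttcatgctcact
Kynu, A_52_P160896, chr2:43492138-43492197, plus strand: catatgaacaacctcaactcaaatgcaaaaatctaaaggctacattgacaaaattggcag
Ddc, A_52_P470150, chr11:11715320-11715379, minus strand: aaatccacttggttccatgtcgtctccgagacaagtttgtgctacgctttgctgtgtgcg
Ddc, A_52_P63905, chr11:11776262-11776321, minus strand: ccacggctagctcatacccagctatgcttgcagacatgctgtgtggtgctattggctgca
Afmid, A_51_P411527, chr11:117697902-117697961, plus strand: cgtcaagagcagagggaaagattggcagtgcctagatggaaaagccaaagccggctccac
Afmid, A_52_P219904, chr11:117700730-117700789, plus strand: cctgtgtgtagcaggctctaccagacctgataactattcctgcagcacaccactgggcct
Acmsd, A_51_P399873, chr1:129642380-129645602, plus strand: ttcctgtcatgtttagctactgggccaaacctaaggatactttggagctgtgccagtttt
Hpd, A_51_P288341, chr5:123622237-123624360, minus strand: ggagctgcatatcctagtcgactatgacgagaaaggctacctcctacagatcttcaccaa
The Acmsd probe was placed over 3223 bases of genome, the Hpd probe over 2124 bases and the Fah probe over 817 bases, so each lies in more than 1 block of sequence. The other probes each lie in 1 block of 60 bases. Kmo was read on chromosome 1 from 177590200 to 177590259, Haao on chromosome 17 from 84230549 to 84230608, Maob on chromosome X from 16286427 to 16286486 and Fah on chromosome 7 from 91740916 to 91741732. Exon positions on mm9 were not used here. The annotation ties the first Kynu probe to NM_027552 and the second to BC026950, the Afmid probes to BC052507 and NM_027827, and both Ddc probes to NM_016672.

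A value called log2 expression is the log2 of a gene's processed signal, averaged over its probes, over the 75th percentile of the same array, so that 0 lies at that percentile. A change is the difference between group means on this scale (log2 fold change, with its standard error, SE), tested with limma over all 20 arrays and called where the adjusted p fell under 0.05. Where all arrays of one group lay wholly above or below the 4 of another, the exact two-sided permutation test gave p = 0.0286, the smallest that 4 against 4 arrays allow. The 75th percentile had a median of 199 to 283 intensity units over the groups, between 57.4% and 67.4% of genes were well above background on an array, and arrays of a group correlated at 0.975 to 0.995. The 5 groups were on 5 different slides, and differences between groups and between slides cannot be told apart. Control and IRI were scanned on the same day, IRI+Hemin on another day, and IPC+IRI and Hemin together on yet another, so of the 5 comparisons only IRI vs Control lies within 1 day.

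All 9 genes were well above background on every array, except Acmsd on IRI+Hemin replicate 4. For Kynu this rested on the probe A_52_P118560 alone, since A_52_P160896 was not well above background on any of the 20 arrays. The pair of Ddc probes gave differences of the same sign in each of the 5 comparisons described, such as -1.32 and -1.15 for IRI vs Control and 1.84 and 1.95 for IRI+Hemin vs IRI (log2). The Afmid probes disagreed. A_52_P219904, which the mean over both followed, differed by -0.046 in IRI vs Control and by -0.86 in IPC+IRI vs Control, while A_51_P411527 differed by -0.44 and -0.34.

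With the detected Kynu probe alone, the changes of Kynu were -1.90 in IRI vs Control, 1.74 in IPC+IRI vs IRI and 1.91 in IRI+Hemin vs IRI, each a little larger than the means over both probes given in the text. With the mean of log2 values over both probes, in which the undetected probe counts fully, they were -0.94, 0.57 and 0.61 and were still called.

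**Figure D1:**
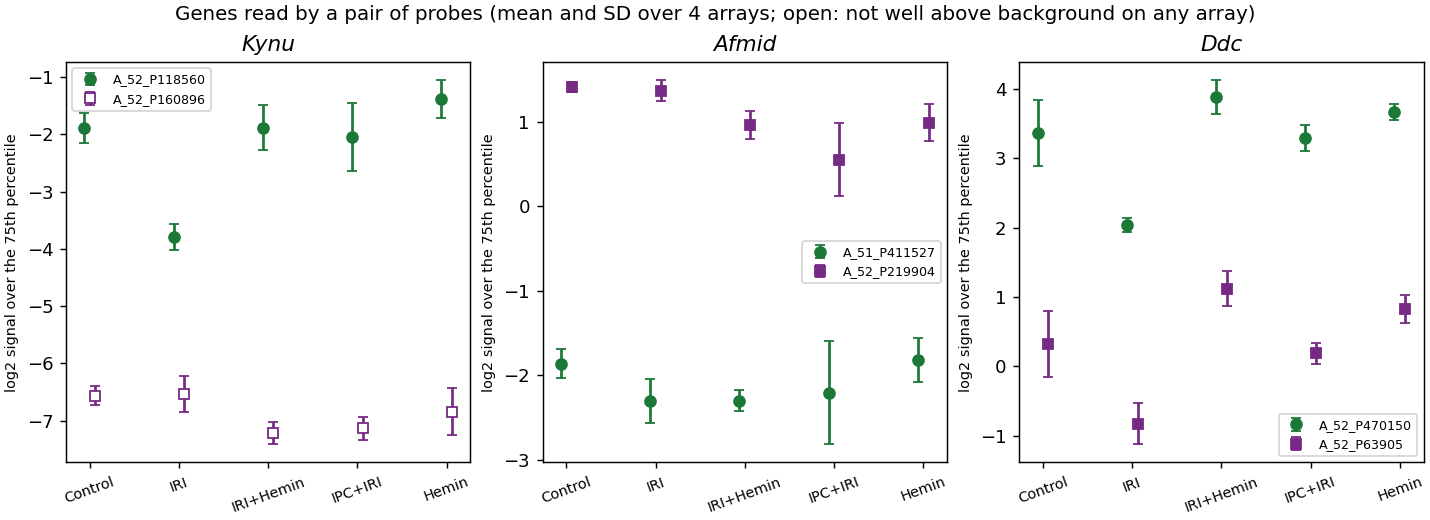
Signal of each probe of Kynu, Afmid and Ddc, as log2 over the array's 75th percentile on the vertical axis, in the 5 groups on the horizontal axis. Points are means over 4 arrays and bars are SD, and open symbols mark the Kynu probe that was not well above background on any of the 20 arrays. Both Ddc probes and the other Kynu probe were lowest in IRI, and the Afmid probes took different courses.

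IRI vs Control compared injured kidneys with those of mice that had no surgery. Anesthesia and the incision therefore differed along with the ischemia. Of the 9 enzymes, 3 fell after IRI, namely Kynu, Acmsd and Ddc, and none rose. Over all 17719 genes tested, 33.9% were called lower and 17.1% higher, so the 3 of 9 called lower stood near the background. All 3 were at least 2-fold lower, against 14.3% of all genes, and 1 was at least 3-fold lower. The 2-fold cutoff was given for this comparison only. As the members were chosen with earlier results of these data known, this share is a description only. The median change of the 9 was -0.25, and that of all genes tested was -0.17. The other 6 enzymes, Kmo, Haao, Afmid, Maob, Hpd and Fah, had changes between -0.27 (Kmo) and 0.27 (Hpd) that did not pass the test.

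Kynu, the kynureninase, had log2 expression of -3.01, -2.55, -3.07 and -2.70 on the Control arrays and of -4.87, -4.54, -4.38 and -4.55 on the IRI arrays. All 4 IRI arrays lay below all 4 Control arrays. The group means were -2.83 ± 0.25 and -4.59 ± 0.20 (SD, n = 4), and Kynu fell 3.37-fold, a log2 fold change of -1.75 (SE 0.25, adjusted p = 1.75e-05). The processed signal of its detected probe had a median of 49.0 intensity units in Control and of 13.8 in IRI. With another background correction (normexp with an offset of 50, which is larger than either of these medians) the change was -0.17 and was not called.

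Acmsd, the decarboxylase that competes with quinolinate formation, had log2 expression of -1.44, -1.48, -1.25 and -0.67 in Control and of -2.89, -2.55, -2.81 and -2.58 in IRI. The groups did not overlap, and the change was -1.50 (SE 0.19, adjusted p = 4.66e-06), or 2.83-fold. With normexp it was smaller, -0.60, and still called. Ddc stood at 2.30, 2.64, 2.04 and 3.14 in Control and at 1.10, 1.15, 1.30 and 1.36 in IRI. The 4 IRI arrays were within 0.26 of each other and below every Control array, and the change was -1.30 (SE 0.18, adjusted p = 1.44e-05), or 2.47-fold. Without Control replicate 2, Kmo was also called, at -0.38 (adjusted p = 0.0403), and no call was lost with any array left out.

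**Figure D2:**
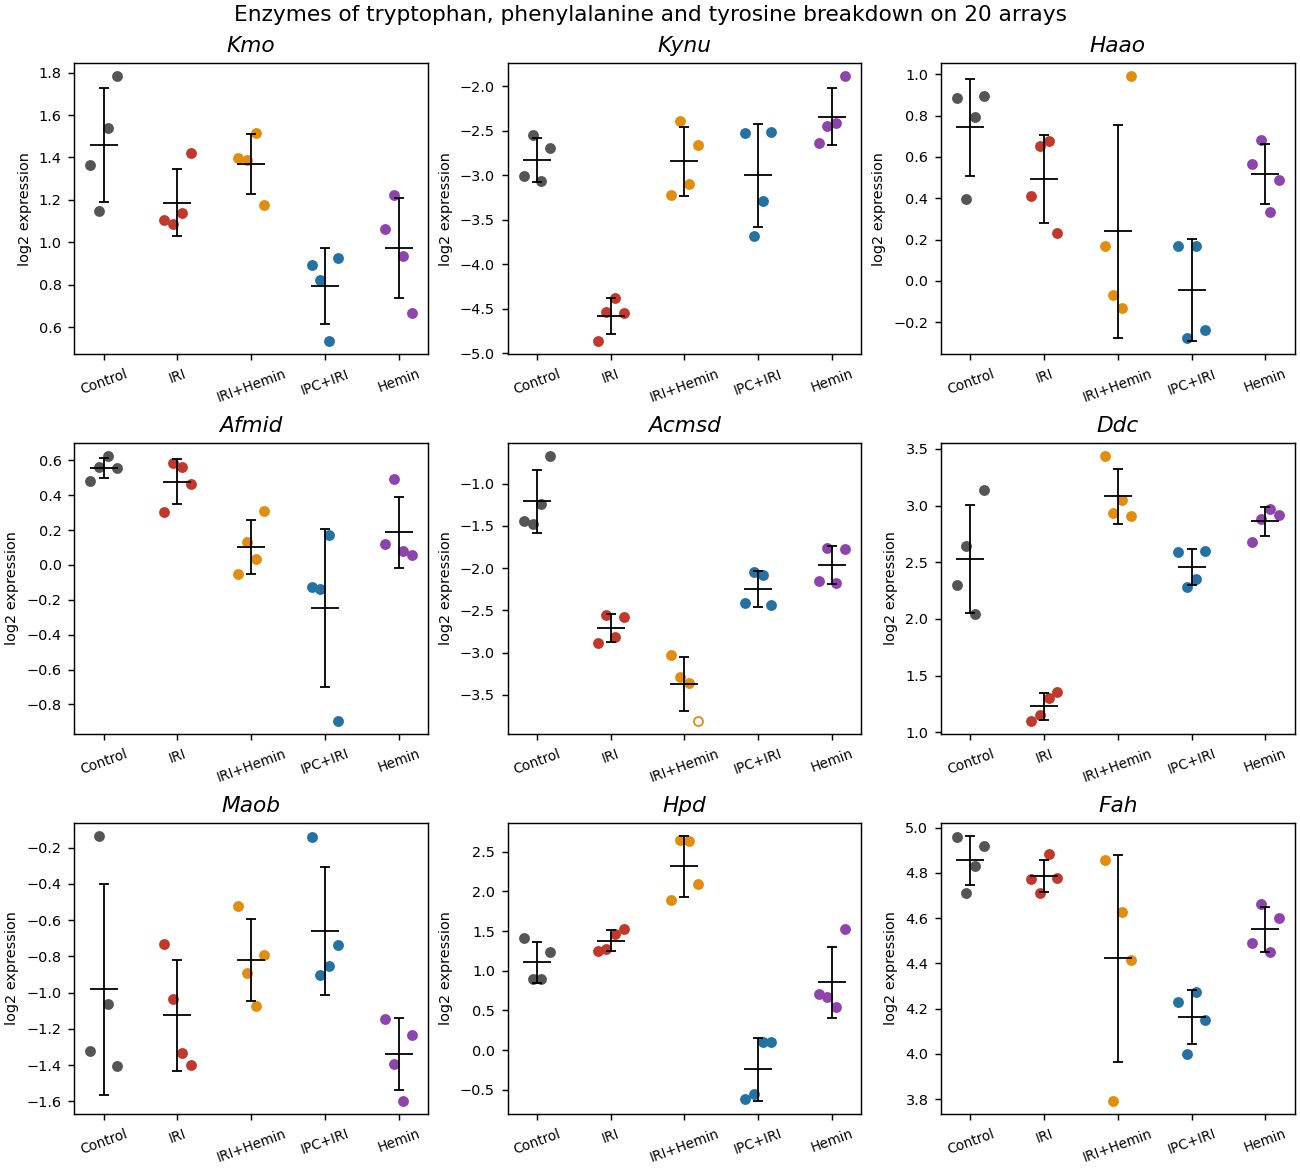
Log2 expression (vertical axis, 0 at the array's 75th percentile) of the 9 enzymes on each array of the 5 groups (horizontal axis). Points are single arrays, open where the gene was not well above background, and bars show the mean ± SD of 4 arrays. Ddc and Kynu were lowest on the 4 IRI arrays, Hpd was highest on the IRI+Hemin arrays and lowest on the IPC+IRI arrays, and Acmsd was highest in Control.

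Other genes of the same pathways were taken from lists. Among 11 further genes of tryptophan and kynurenine metabolism, 4 fell after IRI and none rose (median change -0.014). They were Tdo2, Ido1 and Ido2, dioxygenases that open the indole ring, and Il4i1, an amino acid oxidase. Ido2 changed by -1.52 (SE 0.25, adjusted p = 6.82e-05) and Il4i1 by -1.03 (SE 0.22, adjusted p = 0.000842), with 3 of 4 IRI arrays well above background for Il4i1. Tdo2 was at -4.10 in Control and not well above background on any IRI array, so it was at least 2.13-fold lower (adjusted p = 0.000218), and Ido1 was in the same way at least 2.16-fold lower (adjusted p = 0.00185).

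Of 5 genes of phenylalanine and tyrosine metabolism, only Tat, the tyrosine aminotransferase that supplies the substrate of Hpd, was called, at -1.58 (SE 0.33, adjusted p = 0.000724). Of 6 tested genes of monoamine metabolism, 2 fell. These were Dbh (dopamine beta-hydroxylase) at -1.03 and Aanat at -0.85. In the list for tetrahydrobiopterin, the cofactor of the aromatic amino acid hydroxylases, Gch1, which starts its synthesis, rose by 2.51 (SE 0.25, adjusted p = 4.81e-07), with 2 of 4 Control arrays well above background. Pts and Qdpr of that list fell, by 0.61 and 0.32. Among 6 tested genes of NAD synthesis, Nampt of the salvage pathway rose by 0.58, Nmnat1 fell by 0.39 and Qprt, which acts on quinolinate, was not called at -0.13. Of the regulators listed, Ppargc1a, a coactivator of mitochondrial genes, fell by 0.86.

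Markers of other cells moved in the same comparison. Of 9 proximal tubule markers, 3 fell after IRI (Slc5a12 at -1.67, Lrp2 at -0.95 and Cubn at -0.54), and the log2 of their summed signal lay between 8.77 and 8.93 in Control, 8.35 and 8.80 in IRI, 8.11 and 8.60 in IRI+Hemin, 8.26 and 8.47 in IPC+IRI and 8.67 and 8.73 in Hemin. Of 8 leukocyte markers tested, 3 rose and 1, the B cell gene Cd79a, fell (-1.07, 1 of 4 IRI arrays well above background). Their summed level lay between 1.91 and 2.42 in Control, 2.76 and 3.66 in IRI, 3.00 and 4.07 in IRI+Hemin, 3.57 and 5.29 in IPC+IRI and 2.14 and 2.66 in Hemin. All 9 tubule markers were well above background on every array. The hepatocyte markers Alb, Apoa1 and Ttr had a summed level between -0.94 and 1.05 over all arrays, and Apoa1 was not well above background on 7 of 20 arrays. Alb rose after IRI and Ttr fell, at 0.67 and -1.05. Of the other lists, 2 of 3 tubular injury markers rose and none fell, and of 3 thick limb, 5 distal, 4 endothelium and 3 fibroblast markers 1 of each fell. Another of the distal and another of the endothelium markers rose, and neither of the 2 podocyte markers was called. The part of these cells in the enzymes' values was not tested.

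IRI+Hemin vs IRI asked what Hemin given before the injury changed. Ddc, Kynu and Hpd were higher with Hemin and Acmsd was lower, and the other 5 enzymes were not called. Over all 17835 genes tested, 26.3% were called higher and 18.1% lower, and the median change of the 9 was 0.18 against 0.08 for all genes. Ddc and Kynu were among the genes that the study itself listed for these pathways from this comparison on these arrays, so their direction is not independent evidence. At least 3-fold higher were 2 of the 9, Ddc and Kynu, against 2.47% of all genes. This cutoff was given for this comparison only, and the 3 of 9 called higher stood near the 26.3% of all genes. Because of that listing, and because the members were chosen with earlier results of these data known, the share is a description only.

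Ddc had log2 expression of 3.44, 2.93, 3.05 and 2.91 on the IRI+Hemin arrays. Every one of them lay above every IRI array, and the change was 1.85 (SE 0.18, adjusted p = 2.12e-06), or 3.62-fold. Against Control it was also higher, by 0.55 (SE 0.18, adjusted p = 0.015), although these arrays overlapped. Kynu was at -3.23, -2.40, -3.10 and -2.67, above every IRI array, with a change of 1.74 (SE 0.25, adjusted p = 4.17e-05), or 3.34-fold. Against Control the difference was -0.014 (adjusted p = 0.965), and with normexp the change from IRI was -0.034 and not called.

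Hpd, the hydroxyphenylpyruvate dioxygenase, was at 1.25, 1.28, 1.46 and 1.52 in IRI and at 1.89, 2.65, 2.63 and 2.10 in IRI+Hemin. The groups did not overlap and the change was 0.94 (SE 0.23, adjusted p = 0.00326). Hpd was also higher than in Control, by 1.21 (SE 0.23, adjusted p = 0.000263), and higher than in Hemin alone, by 1.46 (SE 0.23, adjusted p = 8.89e-05). Acmsd was at -3.03, -3.29, -3.35 and -3.81, below every IRI array, with a change of -0.66 (SE 0.19, adjusted p = 0.00806). The last of these arrays was not well above background, and the change was not called from the deposited log2 matrix (-0.46, adjusted p = 0.106) or without normalization (-0.30).

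SAM, the permutation method of the study, kept Ddc and Kynu at a median of 0 false calls, and called neither Hpd nor Acmsd. Fah was called lower without IRI+Hemin replicate 1 (-0.51, adjusted p = 0.0114) or replicate 3 (-0.43, adjusted p = 0.0488), and with quantile normalization (-0.45, adjusted p = 0.0409), and Haao without IRI+Hemin replicate 4 (-0.50, adjusted p = 0.018), where its value of 0.99 stood apart from -0.13 to 0.17 on the other arrays of that group. Maob was called higher without normalization (0.67, adjusted p = 0.0351) and Kmo with normexp (0.43, adjusted p = 0.0309), and Afmid was called lower with normexp (-0.40, adjusted p = 0.0337). These are not all the gains, since under 12 other settings Afmid kept direction and lack of a call in 10 and Fah in 9.

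Among the other genes of these pathways, Abp1, which oxidises histamine and other diamines and is also on the study's list, rose by 1.80 (SE 0.53, adjusted p = 0.0109), while Aanat fell by 0.91 and Pnmt by 0.64 (2 of 4 IRI+Hemin and 3 of 4 IRI arrays well above background for Pnmt). In the tryptophan list, 2 of 9 tested genes rose, Ccbl2 (a kynurenine aminotransferase) at 0.93 and Il4i1 at 0.80. The other 3 called genes of that list fell, Inmt, an indolethylamine methyltransferase, by 1.25, Dhtkd1 by 0.65 and Ccbl1 by 0.48 on the log2 scale. Of the 5 genes of phenylalanine and tyrosine metabolism, 2 fell, Gstz1 at -0.74 and Mif at -0.37. Of the tetrahydrobiopterin genes, Pcbd1 fell by 0.89 and Pts rose by 0.43, and of the NAD genes, Nampt fell by 0.83 and Nmnat1 rose by 0.57. Of the regulators, Ppargc1a rose by 1.71 (SE 0.19, adjusted p = 4.89e-06), while Hnf4a, a factor of tubule and liver identity, fell by 0.67. Of the 9 proximal tubule markers, 3 rose and 3 fell here, and no leukocyte marker of 8 tested was called. Of 3 tubular injury markers, 2 fell, Lcn2 at -1.32 and Havcr1 at -0.92, and none rose. Endothelium markers gave 2 higher and 1 lower of 4, distal tubule and collecting duct markers 1 higher and 2 lower of 5, thick limb, fibroblast and hepatocyte markers 1 higher of 3 each, and podocyte markers no call. The part of these cells in the enzymes' values was again not tested.

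**Figure D3:**
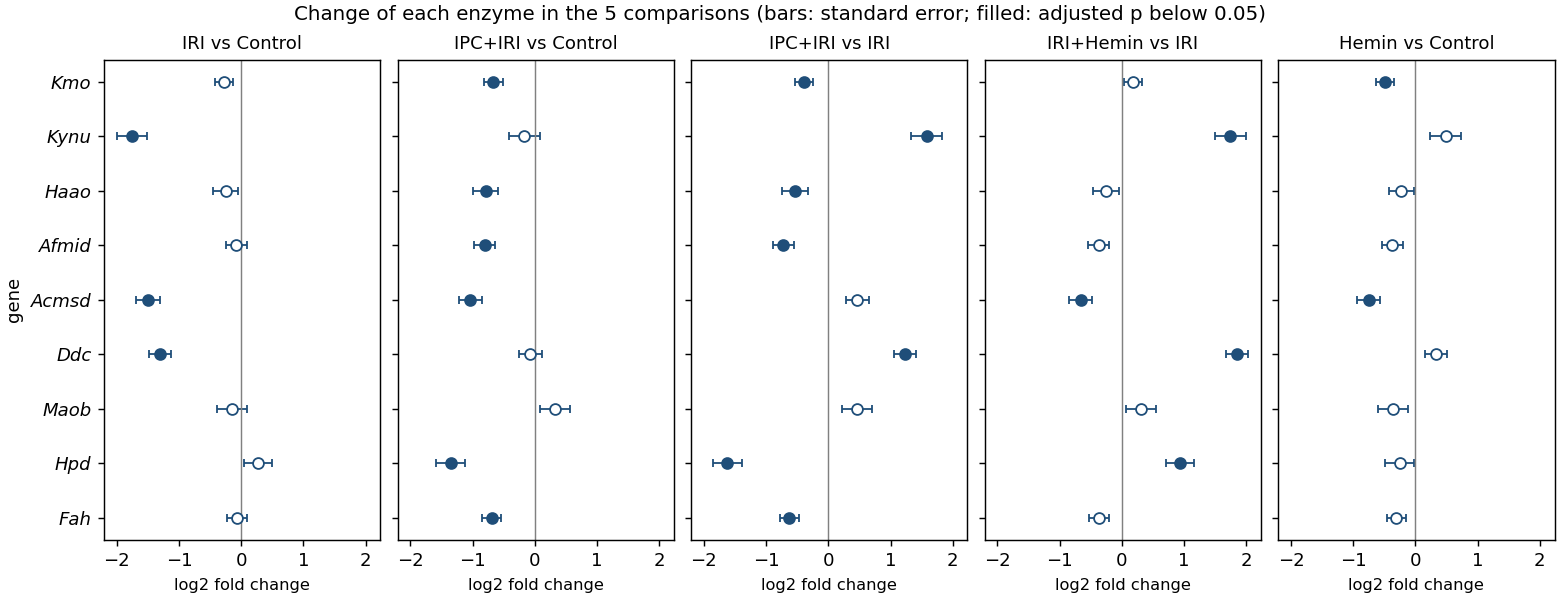
Log2 fold change (horizontal axes) of each of the 9 enzymes (vertical axis) in the 5 comparisons, 1 panel each. Points are differences of group means over 4 arrays a group, bars are the standard error, and filled points were called at an adjusted p below 0.05. Kynu and Ddc lie left of 0 in IRI vs Control and right of 0 in both comparisons against IRI, and Hpd lies on opposite sides in those 2 comparisons.

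Hemin vs Control asked what Hemin changed without injury. Acmsd and Kmo were lower in Hemin, none of the 9 was higher, and 17.6% of the 18579 genes tested were called lower and 18.5% higher. At an unadjusted p below 0.05, Afmid was also lower (-0.37) and again none was higher, with 4051 genes lower and 4564 higher at that threshold. Acmsd was at -2.15, -1.76, -2.17 and -1.78, below every Control array, with a change of -0.75 (SE 0.19, adjusted p = 0.00496). Kmo, the kynurenine monooxygenase, was at 1.36, 1.15, 1.54 and 1.78 in Control and at 1.06, 1.22, 0.94 and 0.66 in Hemin, and these overlapped. Its change of -0.49 (SE 0.15, adjusted p = 0.0154) lost its call without Control replicate 4 (-0.38, adjusted p = 0.0637) or Hemin replicate 4 (-0.38, adjusted p = 0.0577). Ddc, at 0.33, was not called with all arrays but was without Control replicate 4 (0.53, adjusted p = 0.0166). Kynu differed by 0.49 (SE 0.25, adjusted p = 0.135). Without normalization between arrays the result turned to 2 higher, Kynu at 1.05 (adjusted p = 0.00257) and Ddc at 0.90 (adjusted p = 0.0175), and none lower, with Acmsd at -0.19 and the sign changed in 6 of the 9, Kmo among them at 0.079. With quantile normalization 4 were lower, Afmid (-0.43) and Fah (-0.47) in addition. SAM called neither Acmsd nor Kmo, and Kmo was not called with normexp (-0.41, adjusted p = 0.0544) or from the deposited matrix (-0.42, adjusted p = 0.1).

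Among the further genes, Aadat, Ccbl2 and Gcdh of the tryptophan list were higher, at 0.65, 0.57 and 0.37, and Tdo2, Dhtkd1 and Inmt were lower, at -1.06, -0.73 and -0.72. Of 6 tested monoamine genes, Maoa, the paralog of Maob, was higher by 0.54 (SE 0.14, adjusted p = 0.00572), and Aanat and Dbh were lower, at -1.29 and -1.28. Maob itself differed by -0.36 and was not called, and its change ran from -0.50 to -0.077 with 1 array left out. Hgd, the enzyme after Hpd, was higher by 0.31, and Mif was lower by 0.50. In the NAD list, Nmnat3 and Nmnat1 were higher, at 0.77 and 0.42, and Nampt was lower, at -0.54. In the tetrahydrobiopterin list, Pts was higher by 0.44 and Pcbd1 lower by 0.48, and neither regulator was called. Of 9 proximal tubule markers, 2 fell, Slc22a8 at -1.59 and Slc34a1 at -0.54. Of the leukocyte markers, Cd79a was at least 2.45-fold lower (adjusted p = 0.0108), being not well above background on any Hemin array. Aqp3 of the distal and Apoa1 of the hepatocyte markers were higher, and no marker of the other lists was called.

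The change with injury was then set beside that in Hemin-treated mice, as (IRI+Hemin minus Hemin) minus (IRI minus Control), a difference in which each array enters once. Ddc, Kynu and Hpd passed this test, with 5.84% of 19064 genes called in the same direction and 1.96% in the other. The difference holds the IRI+Hemin and IRI arrays from which the study listed Ddc and Kynu, so their calls are not independent evidence. Ddc changed by -1.30 with injury in untreated mice and by 0.22 in Hemin-treated mice, a difference of 1.52 (SE 0.26, adjusted p = 0.00147). Kynu changed by -1.75 and -0.50, a difference of 1.25 (SE 0.35, adjusted p = 0.0359). Hpd changed by 0.27 and 1.46, a difference of 1.19 (SE 0.33, adjusted p = 0.0325). Acmsd was lower with injury in both arms, at -1.50 and -1.41, and the difference was 0.091 (SE 0.27, adjusted p = 0.885). Kmo differed by 0.67 (SE 0.21, adjusted p = 0.0556), Maob by 0.66, and Haao, Afmid and Fah by -0.059 to -0.0045.

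The Ddc difference was called with every array left out. That of Kynu was lost without Control replicate 2 or 4, IRI replicate 1 or 2, IRI+Hemin replicate 2 or 4, or Hemin replicate 1, 2 or 3, where it was 1.10 to 1.27 with adjusted p from 0.0543 to 0.0744. That of Hpd was lost without Control replicate 1 or 4, IRI replicate 1 or 2, IRI+Hemin replicate 2 or 3, or Hemin replicate 1, 2 or 3, where it was 1.08 to 1.15 with adjusted p from 0.0582 to 0.0746. Kmo was called without Control replicate 2, IRI replicate 4, IRI+Hemin replicate 4 or Hemin replicate 2, at 0.73 to 0.77 with adjusted p from 0.0269 to 0.0442. Under 10 of 11 other settings Kmo stayed uncalled, and the lowest adjusted p of the 11 was 0.0441. Maob ran from 0.38 to 0.81 with 1 array left out and was never called. With no filter on dim genes, Kynu (adjusted p = 0.0568) and Hpd (adjusted p = 0.0523) lost their calls. With normexp the Kynu difference was -0.058, and without normalization none of the 3 was called, at 1.32 for Ddc (adjusted p = 0.123), 1.05 for Kynu and 0.99 for Hpd.

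IPC+IRI vs Control compared pre-conditioned, injured kidneys with those of Control mice. Of the 9 enzymes, 6 were lower and none higher, against 32.8% and 23.2% of the 18352 genes tested, and the median change was -0.69 against -0.09 for all genes. The 6 were Hpd, Acmsd, Afmid, Haao, Fah and Kmo, and in each the groups did not overlap, as in 45.1% of all genes tested. Kynu, Ddc and Maob were not called.

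Hpd was at 1.41, 0.89, 0.89 and 1.24 in Control and at -0.61, -0.55, 0.099 and 0.096 in IPC+IRI, a change of -1.35 (SE 0.23, adjusted p = 9.75e-05) or 2.55-fold. Acmsd was at -2.42, -2.04, -2.09 and -2.44, a change of -1.04 (SE 0.19, adjusted p = 0.000162). Haao, the 3-hydroxyanthranilate dioxygenase, ranged from 0.40 to 0.90 in Control and from -0.28 to 0.17 in IPC+IRI, a change of -0.79 (SE 0.20, adjusted p = 0.00329). Kmo ranged from 0.53 to 0.93 in IPC+IRI and changed by -0.66 (SE 0.15, adjusted p = 0.000915). Fah ranged from 4.71 to 4.96 in Control and from 4.00 to 4.27 in IPC+IRI and changed by -0.69 (SE 0.16, adjusted p = 0.00125).

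Afmid ranged from 0.48 to 0.62 in Control and from -0.89 to 0.17 in IPC+IRI, where replicate 4 was lowest, and changed by -0.80 (SE 0.17, adjusted p = 0.00062). These 5 of the 6 calls other than Hpd were lost where the arrays were not normalized, and SAM at a median of 0 false calls called none of the 6, although it called 1425 genes lower. With normexp, Fah lost its call (-0.64, adjusted p = 0.0594) and Kmo, at -0.43, kept it. Ddc differed by -0.073 and Kynu by -0.17, with the Kynu arrays spread from -3.68 to -2.51. Maob, not called at 0.32, was called higher without Control replicate 2 (0.60, adjusted p = 0.0146), the array on which it was highest in that group.

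Around these enzymes, 7 of 11 further tryptophan genes were lower and none higher, Ido2 at -1.34, Tdo2 at -1.24 (2 of 4 IPC+IRI arrays well above background), Dhtkd1 at -1.09 and Ido1 at -0.96 among them. Of 5 genes of phenylalanine and tyrosine metabolism, 4 were lower, Tat at -1.41, Mif at -0.65, Hgd at -0.54 and Gstz1, the enzyme between Hgd and Fah, at -0.40. The median changes of the 2 lists were -0.51 and -0.54, against -0.09 for all genes. Of the monoamine genes, Abp1 was higher by 2.06 (SE 0.53, adjusted p = 0.00329). Its log2 expression had an SD of 1.59 over the 4 IPC+IRI arrays, against 0.19 to 0.66 in the other groups. Aanat was lower by 1.86, Dbh by 1.69 and Pnmt by 1.02, with Dbh and Pnmt well above background on 2 of 4 IPC+IRI arrays. In the tetrahydrobiopterin list, Gch1 was higher by 1.47, and Pcbd1 and Qdpr were lower, at -0.80 and -0.32. In the NAD list, Nmnat3 was higher by 0.63, and Nampt and Nadsyn1 were lower, at -0.59 and -0.51. Ppargc1a was higher by 0.49. Of 9 proximal tubule markers, 5 fell, Slc22a8 most at -1.71, and of 9 leukocyte markers 5 rose and 1 fell. The one that fell was Cd79a, at least 3.27-fold lower (adjusted p = 0.000583) and not well above background on any IPC+IRI array. All 3 tubular injury markers were higher, Lcn2 by 3.00, and so were 3 of 5 distal tubule and collecting duct markers, Aqp2, Slc12a3 and Aqp3, at 0.49 to 0.97. The podocyte marker Podxl was lower, at -0.67, as was Ttr of 2 tested hepatocyte markers, at -1.85. No thick limb, endothelium or fibroblast marker was called, and the part of these cells in the enzymes' values was not tested.

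IPC+IRI vs IRI asked what pre-conditioning changed in injured kidneys. Kynu and Ddc were higher in IPC+IRI, and Hpd, Afmid, Fah, Haao and Kmo were lower. Of the 17668 genes tested, 26.3% were called higher and 17.8% lower, and the median change of the 9 was -0.39 against 0.09 for all genes. Arrays of the groups did not overlap in 8 of the 9, all but Maob, and in 37.9% of all genes tested.

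Kynu was at -2.52, -3.68, -3.29 and -2.51 in IPC+IRI, above every IRI array, and the change was 1.58 (SE 0.25, adjusted p = 9.47e-05), or 3.00-fold. With normexp it was -0.020 and not called. Ddc was at 2.59, 2.28, 2.35 and 2.60, again above every IRI array, with a change of 1.23 (SE 0.18, adjusted p = 5.62e-05), or 2.35-fold. This comparison uses the same 4 IRI arrays as IRI+Hemin vs IRI and IRI vs Control, so the 3 are not independent of each other.

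Hpd moved the other way from its change with Hemin. It was 3.08-fold lower in IPC+IRI than in IRI, a change of -1.62 (SE 0.23, adjusted p = 4.22e-05), and 5.9-fold lower than in IRI+Hemin, a change of -2.56 (SE 0.23, adjusted p = 3.27e-05), where 5.61% of 18095 genes were called lower and 6.43% higher. Acmsd was higher in IPC+IRI than in IRI+Hemin by 1.13 (SE 0.19, adjusted p = 0.00145), and Ddc and Kmo were lower by 0.62 and 0.57. The other 5 enzymes were not called between the groups that had both an intervention and injury.

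Acmsd, at 0.46 (SE 0.19, adjusted p = 0.0514) against IRI, was just outside the threshold and was called without IPC+IRI replicate 1 (0.52, adjusted p = 0.0489) or replicate 4 (0.53, adjusted p = 0.045). Under 12 other settings its direction and lack of a call were kept in 8, and the lowest adjusted p was 0.0317. Afmid changed by -0.73 (SE 0.17, adjusted p = 0.0022). Its probe A_52_P219904 differed by -0.82 and A_51_P411527 by 0.10, and with the mean of log2 values over both probes the change was -0.36 (adjusted p = 0.130) and was not called. Fah changed by -0.62 (SE 0.16, adjusted p = 0.00403). Of the 5 lower enzymes, only Hpd was called without normalization or by SAM. The calls of Kmo, -0.39 (SE 0.15, adjusted p = 0.036), and Haao, -0.54 (SE 0.20, adjusted p = 0.0397), were the weakest. Kmo lost its call without IRI replicate 3 or 4 or IPC+IRI replicate 2 or 3, at -0.41 to -0.31 with adjusted p from 0.0523 to 0.116, and Haao lost its call without IRI replicate 1, 2 or 3 or IPC+IRI replicate 2 or 4, at -0.56 to -0.46 with adjusted p from 0.0557 to 0.101. With all arrays, Kmo kept its call under 5 of 12 other settings. It was lost with quantile normalization (-0.39, adjusted p = 0.0516), normexp (-0.19), the deposited matrix (-0.26), no filter on dim genes and the replicate block, beside missing normalization and SAM. Haao lost its call with the deposited matrix (-0.36, adjusted p = 0.162), without the filter and with the replicate block, and Fah with normexp (-0.49, adjusted p = 0.142).

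Of the further genes, Abp1 was higher than in IRI by 2.92 (SE 0.53, adjusted p = 0.000336), with the wide IPC+IRI spread given above, and Ppargc1a by 1.35 (SE 0.19, adjusted p = 3.83e-05). In the tryptophan list Il4i1 and Ccbl2 were higher, at 0.65 and 0.56, and Dhtkd1, Ccbl1, Inmt and Got2 were lower, at -1.08, -0.86, -0.81 and -0.34. In the phenylalanine and tyrosine list none of 5 was higher and 3 were lower, Mif, Gstz1 and Hgd, between -0.54 and -0.31. In the tetrahydrobiopterin list Gch1 was lower by 1.04 and Pcbd1 by 0.49, and Pts and Pcbd2 were higher, at 0.80 and 0.53. Of the monoamine genes other than Abp1, Aanat and Pnmt were lower, at -1.01 and -0.67 (Pnmt well above background on 2 of 4 IPC+IRI and 3 of 4 IRI arrays). In the NAD list, Nampt was lower, at -1.17 (SE 0.13, adjusted p = 7.8e-06), and Nmnat3 and Nmnat1 were higher, at 0.61 and 0.55. Proximal tubule markers went both ways, 3 higher and 4 lower of 9, and of the leukocyte markers Lyz2 and Itgam were higher, at 2.18 and 1.46 (Itgam well above background on 2 of 4 IRI arrays), and Cd68 was lower, at -0.82. The thick limb marker Kcnj1, the fibroblast marker Col1a1 and the collecting duct marker Atp6v1g3 were higher, the endothelium markers Cdh5 and Pecam1, the injury marker Lcn2 and the hepatocyte marker Alb were lower, and no podocyte marker was called. Their part in the enzymes' values was not tested.

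**Figure D4:**
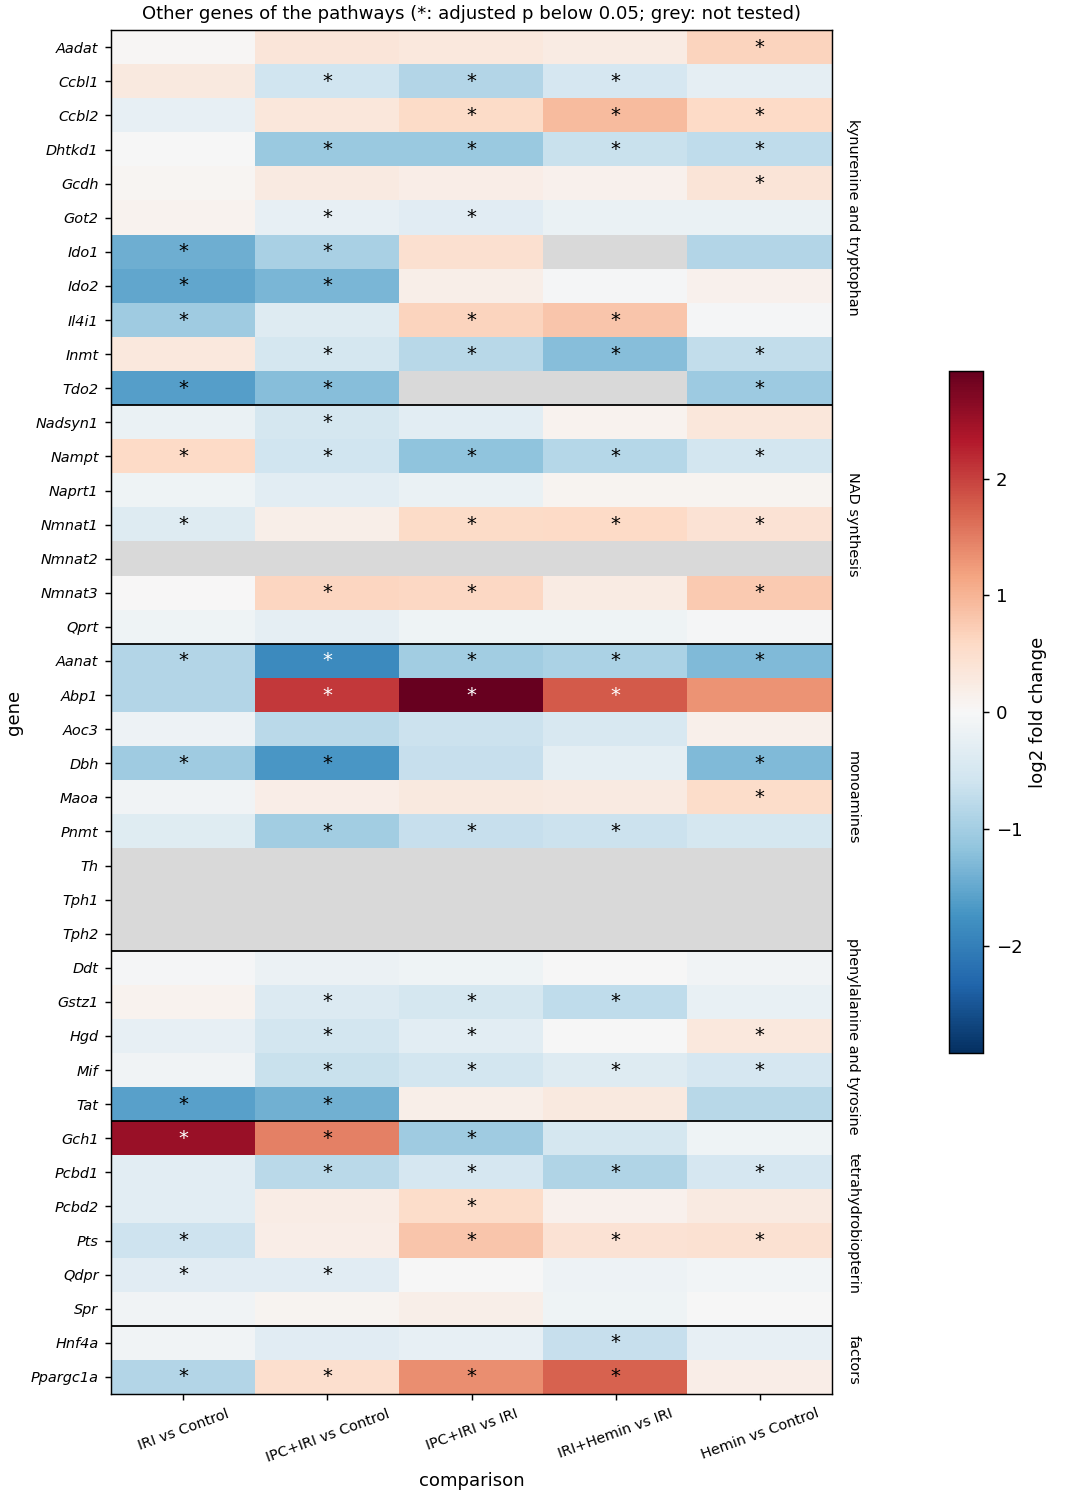
Log2 fold change (colour) of the listed genes of the surrounding pathways (rows) in the 5 comparisons (columns), with an asterisk where the adjusted p was below 0.05 and grey where a gene was not tested. The tryptophan and phenylalanine lists hold no called rise in IPC+IRI vs Control, and Ppargc1a is lower in IRI vs Control and higher in both comparisons against IRI.

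The order of the group means differed from enzyme to enzyme. Ddc was highest in IRI+Hemin (3.08), followed by Hemin (2.86), Control (2.53), IPC+IRI (2.46) and IRI (1.23), and only the last pair of neighbours was separated by the test. Kynu ran from Hemin (-2.35) through Control (-2.83), IRI+Hemin (-2.85) and IPC+IRI (-3.00) to IRI (-4.59), and again only the last neighbours were separated. Hpd ran from IRI+Hemin (2.32) through IRI (1.38), Control (1.11) and Hemin (0.86) to IPC+IRI (-0.24), with the first and the last neighbours separated. Acmsd ran from Control (-1.21) through Hemin (-1.96), IPC+IRI (-2.25) and IRI (-2.71) to IRI+Hemin (-3.37), and Control and Hemin, and IRI and IRI+Hemin, were separated.

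No neighbours were separated in the other 5 enzymes. Kmo ran from Control (1.46) to IPC+IRI (0.79), Haao from Control (0.74) to IPC+IRI (-0.04), Afmid from Control (0.56) to IPC+IRI (-0.25) and Fah from Control (4.86) to IPC+IRI (4.16), with the ends called apart in each. Maob ran from IPC+IRI (-0.66) to Hemin (-1.34), and its only called difference among the 10 pairs of groups was between these, 0.68 (SE 0.24, adjusted p = 0.0354). Of the 10 pairs of groups, arrays overlapped in 7 for Kmo, Haao and Afmid, in 8 for Maob and in 5 for Fah. Kmo ranged from 1.08 to 1.42 in IRI and from 1.18 to 1.51 in IRI+Hemin. Haao ranged from 0.23 to 0.68 in IRI and from 0.33 to 0.68 in Hemin, and in IRI+Hemin it had the widest spread of its groups. Afmid ranged from 0.30 to 0.59 in IRI, -0.055 to 0.31 in IRI+Hemin and 0.059 to 0.49 in Hemin. Its IRI and IRI+Hemin arrays overlapped, and the difference of -0.37 (SE 0.17, adjusted p = 0.0797) was not called.

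Fah, whose mean was highest in Control, ranged from 4.71 to 4.88 in IRI, 3.79 to 4.86 in IRI+Hemin and 4.45 to 4.66 in Hemin. Every Hemin array lay below every Control array, but the difference of -0.30 (SE 0.16, adjusted p = 0.141) was not called. Maob, which oxidises dopamine and phenylethylamine among other amines, was at -1.32, -0.13, -1.06 and -1.41 in Control, -0.73, -1.04, -1.33 and -1.40 in IRI, -0.52, -0.89, -1.07 and -0.79 in IRI+Hemin, -0.14, -0.90, -0.85 and -0.74 in IPC+IRI and -1.14, -1.39, -1.60 and -1.23 in Hemin. Control replicate 2 was the highest of its group by a wide margin.

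Set against Hemin alone, IRI had lower Kynu, -2.24 (SE 0.25, adjusted p = 8.27e-07), lower Ddc, -1.63 (SE 0.18, adjusted p = 8.2e-07), and lower Acmsd, -0.75 (SE 0.19, adjusted p = 0.0023). IPC+IRI had lower Hpd, -1.10 (SE 0.23, adjusted p = 0.00135), Haao, -0.56, and Kynu, -0.66. The Hemin arrays of Ddc were at 2.68, 2.88, 2.97 and 2.91 and those of Kynu at -2.64, -2.44, -2.41 and -1.89. Those of Hpd were at 0.70, 0.66, 0.54 and 1.52, with replicate 4 above the other 3.

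Among the other pairs, IRI+Hemin vs Control gave 2 enzymes higher and 4 lower (24.4% and 33.2% of all genes tested), IRI+Hemin vs Hemin 2 higher and 1 lower (16.5% and 27.9%), IPC+IRI vs Hemin 1 higher and 3 lower (13.2% and 22.8%), and IRI vs Hemin 0 higher and 3 lower (20.4% and 39.3%). Control was the highest of the 5 groups for Kmo, Haao, Afmid, Acmsd and Fah, and IPC+IRI the lowest for Kmo, Haao, Afmid, Hpd and Fah.

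Over the 20 arrays, which share groups and slides, Kynu and Ddc had a Pearson correlation of 0.86, given as a description. Haao and Afmid had 0.74, Haao and Fah 0.65, Afmid and Fah 0.63, and Kmo and Hpd 0.58. Hpd and Acmsd had -0.45, and the 8 pairs with Maob lay between -0.34 and 0.105. The 4 IRI arrays were the lowest of all 20 in both Kynu and Ddc.

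**Figure D5:**
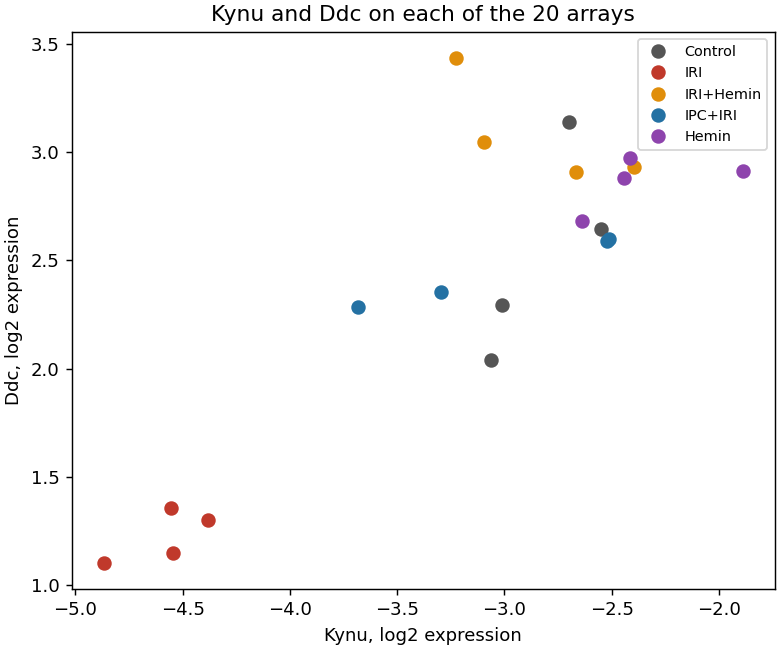
Log2 expression of Kynu (horizontal axis) and Ddc (vertical axis) on each of the 20 arrays, coloured by group. The 4 IRI arrays stand apart, at Kynu of -4.87 to -4.38 and Ddc of 1.10 to 1.36, and the other groups overlap.

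Among 14534 genes well above background on all 20 arrays, those whose pattern was most like that of each enzyme were named by the 3 highest correlations over the arrays. For Ddc they were Syt11 (0.90), Cryzl1 (0.90) and M17518 (0.89), and for Kynu 2700097O09Rik, 2810405K02Rik and 4922501C03Rik (0.92 each). For Hpd they were Ddn (0.87), AF055908 (0.86) and Cyp2d9 (0.86), and for Acmsd 2310081J21Rik, Chrna4 and Slc36a1 (0.91 each). For Haao they were Dclk2 (0.93), Pafah2 (0.92) and Farp2 (0.91), for Fah 1110014N23Rik (0.92), Asna1 (0.89) and Taf10 (0.88), and for Kmo Slmap (0.87), Acad11 (0.85) and Armc8 (0.82). Afmid (Usp11, 0.85) and Maob (Enpp5, 0.79) had the lowest top values.

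Promoter windows of 300 bases, from 250 before to 50 after the start in RefSeq (GRCm38.p6, a later build than the probe positions), matched 7 of the 9 enzymes by symbol, with 2 windows for Ddc. Kynu and Maob had none in the table. Of Hpd and Ddc, the enzymes that were highest in IRI+Hemin, the Hpd window and the Ddc window that holds a motif are printed in lower case, with any of the motifs searched in capitals.
Ddc, chr11:11898095-11898394, minus strand: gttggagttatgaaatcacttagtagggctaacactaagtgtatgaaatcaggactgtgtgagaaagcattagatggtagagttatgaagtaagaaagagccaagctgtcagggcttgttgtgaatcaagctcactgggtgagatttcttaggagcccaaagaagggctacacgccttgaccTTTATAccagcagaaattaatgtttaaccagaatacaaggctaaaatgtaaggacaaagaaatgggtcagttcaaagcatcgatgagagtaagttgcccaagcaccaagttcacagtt
Hpd, chr5:123182674-123182973, minus strand: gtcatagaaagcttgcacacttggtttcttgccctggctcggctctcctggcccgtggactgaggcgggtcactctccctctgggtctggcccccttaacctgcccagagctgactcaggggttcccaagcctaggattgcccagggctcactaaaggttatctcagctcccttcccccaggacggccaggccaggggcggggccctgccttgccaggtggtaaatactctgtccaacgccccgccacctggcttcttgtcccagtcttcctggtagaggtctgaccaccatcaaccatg
On both strands, TATAAA was found in this Ddc window on the opposite strand, 68 bases before the start, and AAGTCCA (the core of an HNF4 site) in the Kmo window on the opposite strand. The other Ddc window, chr11:11890359-11890658 on the minus strand, held neither, nor did that of Hpd. No motif overlapped another in these windows. The shares of all 32851 promoter windows that hold them were 13.6% and 4.17%. These are matches of letters only, and a window without a match says nothing about the factor.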

How the data were processed

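Total kidney RNA of 20 samples was measured on 1-colour Agilent arrays, 4 arrays in each of 5 groups, which were taken from the sample labels. The labels give 500 ng of RNA for labelling and the methods 700 ng. Intensities were deposited by the authors as scanner output of Agilent Feature Extraction 9.5.3.1, whose processed signal is background-subtracted. A deposited log2 matrix holds the log2 of the same processed signals, without scaling between arrays and with 18.1% of its cells blank, and served as an alternative. The study's own calls were made with SAM and fold thresholds.

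From the 43379 non-control spots, those marked as outliers were removed (53 to 165 an array), spots of the same probe were averaged (41174 probes), values were divided by the 75th percentile of their array, and the probes of a gene were averaged before log2. A gene was tested where at least 3 of 4 arrays of either group were well above background and at most 1 of the compared arrays lacked a value. Differences were tested with limma 3.58.1 (R 4.3.3) over all 20 arrays with 5 group means and 15 residual degrees of freedom. Benjamini-Hochberg adjustment was made within each comparison. Single genes were also set against an exact two-sided permutation test. Precision is limited by having 4 arrays a group. The scripts were tested on simulated data.

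The members and lists were chosen with earlier results of these data known. All 9 members were described in every comparison, together with up to 4 called genes of the largest change from each pathway list, and genes beyond that number were named after their values were seen. Some listed genes are not reported here. Nmrk1, Asmt, Ly6g and Serpina1a had no match on the array. Th, Tph1, Tph2 and Nmnat2 were too dim to be tested. Likeness of pattern was measured over genes well above background on all 20 arrays.

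Alternatives were another background correction, 3 other normalizations, 2 other rules for several probes, the log2 matrix of the authors, a stricter filter on dim genes or none, a fit of the compared arrays only, a block for the replicate number, SAM, and leaving out each array in turn.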

Additional observations from a re-analysis of the deposited data

Results flagged for a closer look

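In 3 of the 45 sets of 4 arrays, 9 genes in 5 groups, the highest array lay far from the other 3 by Dixon's criterion, which chance meets in about 1 of 20 sets. Kmo was 1.42 on IRI replicate 4 and 1.08 to 1.14 on the other IRI arrays. Afmid was 0.49 on Hemin replicate 2 and 0.06 to 0.12 on the others. Hpd was 1.52 on Hemin replicate 4 and 0.54 to 0.70 on the others. Without IRI replicate 4 the call of Kmo in IPC+IRI vs IRI was lost, at -0.31 (adjusted p = 0.107).

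The change with injury differed between Hemin-treated and untreated mice in 3 genes by limma's test of that difference in the fit of all 20 arrays. The difference was 1.52 for Ddc, 1.25 for Kynu and 1.19 for Hpd on the log2 scale. Slide, scanning day and group cannot be told apart in it.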

How the results depend on the processing

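Over 633 values of a single enzyme in a comparison under another setting, 535 kept direction and call, 47 lost and 21 gained a call, and 30 changed sign. With 1 array left out, 445 of 504 kept both, 29 lost and 12 gained a call, and 18 changed sign. The number of enzymes called in IRI vs Control was 0 higher and 3 lower under every other setting run except normexp, which gave 2 lower, without Kynu, and 0 higher and 3 to 4 lower with 1 array left out. With 1 array left out, IPC+IRI vs Control gave 0 to 1 higher and 6 lower, IPC+IRI vs IRI 2 to 3 higher and 3 to 5 lower, IRI+Hemin vs IRI 3 higher and 1 to 2 lower, Hemin vs Control 0 to 1 higher and 1 to 2 lower, and the difference of the injury changes 1 to 4.

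Without normalization, which moved the median change of all genes from -0.09, 0.09, 0.08 and 0.06 to between 0.35 and 0.62 in the comparisons other than IRI vs Control, IPC+IRI vs Control gave 1 higher (Maob, 0.76) and 1 lower, IPC+IRI vs IRI 3 higher (Maob gained, 0.78) and 1 lower, IRI+Hemin vs IRI 4 higher (Maob gained, 0.67) and 0 lower, Hemin vs Control 2 higher and 0 lower, and the difference of the injury changes 0. Reversed in sign there were Afmid (0.042) and Fah (0.052) in IRI vs Control, Kynu (0.27) and Ddc (0.36) in IPC+IRI vs Control, Haao (0.11) and Fah (5.72e-07) in IRI+Hemin vs IRI, Kmo (0.079), Haao (0.34), Afmid (0.20), Maob (0.21), Hpd (0.31) and Fah (0.26) in Hemin vs Control, and Acmsd (-0.11) in the difference of the injury changes. With normexp, IPC+IRI vs Control gave 5 lower, without Fah, IPC+IRI vs IRI 1 higher and 3 lower, IRI+Hemin vs IRI 3 higher (Kmo gained, 0.43, and Kynu lost) and 2 lower, and Hemin vs Control 1 lower. Reversed were Ddc (0.0032) in IPC+IRI vs Control, Kynu (-0.020) and Acmsd (-0.10) in IPC+IRI vs IRI, Kynu (-0.034) in IRI+Hemin vs IRI, and Kynu (-0.058), Haao (0.0077) and Acmsd (-0.076) in the difference. The causes were not tested.

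Quantile normalization gave 2 lower in IRI+Hemin vs IRI and 4 lower in Hemin vs Control, and so did the percentile over probes above background on all arrays and the compared arrays alone. In the difference of the injury changes, Haao (0.026), Afmid (0.050), Acmsd (-0.0044) and Fah (0.020) were reversed with quantiles, Haao (0.054), Afmid (0.076) and Fah (0.022) with that percentile, Afmid (0.013) with the brightest probe, and Haao (0.14) and Afmid (0.13) with the deposited matrix. The deposited matrix gave 4 higher and 2 lower in IPC+IRI vs IRI, 0 lower in IRI+Hemin vs IRI and 1 lower in Hemin vs Control. With no filter, 3 were lower in IPC+IRI vs IRI and 1 was called in the difference, and with the stricter filter 0 were lower in IRI+Hemin vs IRI, since Acmsd was then not tested. SAM gave 0 lower in IPC+IRI vs Control, 1 lower in IPC+IRI vs IRI, 0 lower in IRI+Hemin vs IRI and 0 lower in Hemin vs Control. The Kynu difference was not called with quantiles (1.00, adjusted p = 0.108), nor with the mean of log2 values over its probes (0.50, adjusted p = 0.25), which counts the undetected probe fully.

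Leaving out 1 array reversed Maob in IRI vs Control (range -0.29 to 0.14), Kynu (-0.34 to 0.054) and Ddc (-0.24 to 0.13) in IPC+IRI vs Control, and Haao (-0.28 to 0.097), Afmid (-0.072 to 0.097), Acmsd (-0.088 to 0.24) and Fah (-0.20 to 0.15) in the difference. Arrays of the same replicate number had deviations that correlated at -0.32 to 0.20 over the 5 comparisons, so the numbers were not taken as pairs. In IRI vs Control alone these ran from -0.0034 to 0.20, and 3 of 4 IRI arrays were most like the Control array of their own number. The replicate block lowered the count in IPC+IRI vs IRI from 5 to 3 lower, without Kmo (adjusted p = 0.0589) and Haao (adjusted p = 0.0561), and moved no other count. Slide as a random block could not be fitted, as each group has 1 slide. SAM was not run for the difference, the deposited matrix gave no value for Fah in the difference or in any of the 3 comparisons between Control, IRI and IPC+IRI, and the stricter filter none for Acmsd in the difference.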
